A study of Mus musculus with 9 samples.

Results

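The genes described here are 35 genes of cholesterol and fatty acid synthesis, chosen by symbol as core enzymes of both pathways together with their regulators and the main carriers of cellular cholesterol. All 35 were found among the 20731 gene symbols counted, and all 35 were among the 14746 genes with enough reads to be tested. They were sorted by role into 7 genes of the mevalonate pathway, 11 genes that convert its product into cholesterol, 5 regulators, 8 genes of fatty acid synthesis and 4 genes of cholesterol transport and efflux. The 11 are called the genes from squalene to cholesterol below, although Fdft1 among them makes squalene.

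Cerebral venous sinus thrombosis (CVST) was induced with ferric chloride on the superior sagittal sinus of every mouse, and RNA was taken on day 2. The study asked how a block of lymphatic drainage, with or without 4-phenylbutyric acid (4-PBA), changes the brain after thrombosis. The 3 groups, with 3 mice each, were CVST (thrombosis alone), CVST+Ligation (thrombosis and ligation of the deep cervical lymph nodes) and 4-PBA (thrombosis, ligation and 4-PBA, an inhibitor of endoplasmic reticulum stress). All were male C57BL/6J mice 8 to 10 weeks old. According to the methods, 4-PBA was injected intraperitoneally at 100 mg/kg, 30 min before modelling, whereas the description of the data set places it after ligation. Control mice were given the solvent, and it is not stated whether the CVST+Ligation mice were among them. No mouse without thrombosis was among the 9, so none of the comparisons shows the effect of thrombosis. Labels of the samples give the tissue as brain without a region, and cortical tissue is named in the series text.

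Cells make cholesterol from acetyl-CoA through the mevalonate pathway to squalene, which is closed into a ring and trimmed to cholesterol. The same acetyl-CoA is built into saturated fatty acids, which are then elongated and desaturated. Both routes are switched on by sterol regulatory element-binding proteins (SREBPs), which SCAP carries out of the endoplasmic reticulum when sterols are low and which INSIG proteins hold back when sterols are high. SREBP2, the product of Srebf2, drives mainly the cholesterol genes, and SREBP1, the product of Srebf1, mainly the fatty acid genes. The brain makes its own cholesterol, much of it for myelin in oligodendrocytes, and astrocytes pass lipids to other cells on particles of apolipoprotein E.

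The libraries held 18100739 to 25091498 counted reads, and a floor of 3 counts corresponded to 0.114 to 0.163 CPM (counts scaled to a common library total with the TMM method of edgeR). This floor covers counting error only. The libraries differed in the levels of markers of brain regions. Summed over 8 markers of midbrain neurons, the level was 18.01 to 19.7 CPM in the CVST mice, 172 to 211 CPM in the CVST+Ligation mice and 226 to 232 CPM in the 4-PBA mice, and all 8 were higher at an unadjusted p below 0.05 in both ligated groups than in the CVST group, against 5.47% of all genes for CVST+Ligation and 8.07% for 4-PBA (4 of the 8 had 0 counts in at least 1 library). The sum of 8 cortical neuron markers was 2982 to 3291 CPM, 840.1 to 3059 CPM and 1241 to 1523 CPM in the same order. CVST+Ligation mouse 2 stood apart with 1760.3 CPM over 8 cerebellar markers, against 204 to 356 CPM in the other 8 mice. The summed level of 12 oligodendrocyte markers, among them Mbp of myelin, was 4224 to 5675 CPM in the CVST mice, 3534 to 8146 CPM in the CVST+Ligation mice and 6604 to 9449 CPM in the 4-PBA mice, and none of the 12 was at 0 in any library. In bulk tissue, the share of a region or of a cell type and the RNA per cell cannot be told apart.

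Levels of the genes were compared per length, in FPKM (counts scaled by library total and by a length per gene), as the mean over the 9 mice. The lengths are those implied by the deposited values, such as 801 bases for Elovl6, 1075 for Scd2 and 675 for Insig2. Which parts of the transcripts they cover is not given in the sources used here, and the order of levels between genes depends on them. Apoe, which encodes apolipoprotein E, was by far the most abundant at 1862 FPKM, above 99.9% of the genes tested. Scd2, a desaturase that makes monounsaturated fatty acids, followed with 534 FPKM, and its neighbour and close relative Scd1 had 79.5 FPKM. Abca1, a pump that loads cholesterol onto apolipoproteins, was the lowest of the 35 at 3.39 FPKM, and its partner Abcg1 had 26.2 FPKM. Stard4, a carrier of cholesterol inside the cell, had 13.99 FPKM.

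In the mevalonate pathway, Hmgcs1, an early enzyme of the pathway, led with 249.6 FPKM. Fdps, which makes farnesyl diphosphate, had 95.1 FPKM, the mevalonate kinase Mvk had 17.95 FPKM and the phosphomevalonate kinase Pmvk had 76.7 FPKM. The decarboxylase Mvd had 21.5 FPKM, the isomerase Idi1 had 35.2 FPKM and Acat2, which joins acetyl-CoA units, had 39.2 FPKM. Among the genes from squalene to cholesterol, Msmo1, a sterol demethylating oxidase, had 181 FPKM and Fdft1, the squalene synthase, had 171 FPKM. Sqle, the squalene epoxidase, had 94.2 FPKM and Cyp51, the lanosterol demethylase, had 79.9 FPKM. The sterol desaturase Sc5d had 75.4 FPKM, the sterol dehydrogenase Nsdhl had 47.03 FPKM and the sterol isomerase Ebp had 46.9 FPKM. Dhcr7, which completes cholesterol, had 31.3 FPKM and Tm7sf2, a sterol reductase, had 14.3 FPKM. The lowest of this branch were Hsd17b7, a sterol ketoreductase, at 10.7 FPKM and Lss, the lanosterol synthase, at 8.18 FPKM.

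Of the regulators, Srebf2 had 69.8 FPKM, Insig2 59.9 FPKM, Insig1 46.9 FPKM, Scap 32.3 FPKM and Srebf1 16.02 FPKM. In fatty acid synthesis, the desaturases of polyunsaturated fatty acids Fads2 and Fads1 had 114 FPKM and 89.3 FPKM. Acly, which supplies acetyl-CoA, had 105 FPKM, the fatty acid synthase Fasn had 47.9 FPKM and the acetyl-CoA carboxylase Acaca had 14.96 FPKM. Elovl6, which elongates palmitate, was the lowest of this arm at 9.27 FPKM.

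SREBPs bind together with the factors NF-Y and Sp1 at many of these genes, and the promoters of members whose levels behaved differently are shown for that reason: Hmgcs1 and Idi1 from the sterol side, and Fads2 and Elovl6 from the fatty acid side. Each sequence is a RefSeq promoter of build GRCm38.p6, 250 bases before to 50 bases after the RefSeq start of the gene, written 5′ to 3′ on the strand of the gene. Capitals mark matches, on either strand, to a strict sterol regulatory element (TCACNCCAC), to the CCAAT letters of NF-Y and to the GGGCGG letters of Sp1, and none of the matches in these 4 windows overlapped another. The windows are chr13:119690101-119690400 (plus strand), chr13:8885356-8885655 (plus strand), chr19:10101454-10101753 (minus strand) and chr3:129532136-129532435 (plus strand).
Hmgcs1: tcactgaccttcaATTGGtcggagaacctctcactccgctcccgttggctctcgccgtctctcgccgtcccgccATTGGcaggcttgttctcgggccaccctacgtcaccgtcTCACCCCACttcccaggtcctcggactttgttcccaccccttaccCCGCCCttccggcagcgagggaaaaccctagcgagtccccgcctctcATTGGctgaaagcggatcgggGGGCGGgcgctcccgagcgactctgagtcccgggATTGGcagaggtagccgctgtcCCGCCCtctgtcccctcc
Idi1: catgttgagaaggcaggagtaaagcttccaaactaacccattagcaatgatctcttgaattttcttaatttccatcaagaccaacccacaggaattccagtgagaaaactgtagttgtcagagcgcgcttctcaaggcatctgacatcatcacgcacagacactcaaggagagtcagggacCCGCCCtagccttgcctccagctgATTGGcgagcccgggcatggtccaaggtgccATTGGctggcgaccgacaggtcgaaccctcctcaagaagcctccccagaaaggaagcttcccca
Fads2: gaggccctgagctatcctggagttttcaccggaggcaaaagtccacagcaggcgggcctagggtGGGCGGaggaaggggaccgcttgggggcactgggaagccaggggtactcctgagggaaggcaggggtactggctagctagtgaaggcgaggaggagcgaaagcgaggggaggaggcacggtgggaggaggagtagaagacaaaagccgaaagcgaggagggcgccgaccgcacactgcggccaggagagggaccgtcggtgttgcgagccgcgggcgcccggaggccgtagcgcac
Elovl6: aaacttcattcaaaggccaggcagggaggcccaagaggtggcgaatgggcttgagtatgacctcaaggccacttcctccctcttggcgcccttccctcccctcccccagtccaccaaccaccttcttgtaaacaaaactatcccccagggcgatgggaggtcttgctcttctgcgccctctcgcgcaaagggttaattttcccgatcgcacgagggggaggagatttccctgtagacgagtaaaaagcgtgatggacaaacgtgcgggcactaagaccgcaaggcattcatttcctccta

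The Hmgcs1 window held 1 sterol regulatory element, which begins 137 bases before the start of the gene in RefSeq, 4 CCAAT matches and 3 GGGCGG matches. Idi1 had 2 CCAAT matches and 1 GGGCGG match, Fads2 had 1 GGGCGG match, and in the Elovl6 window none of the 3 sets of letters was found. Promoters were matched for 27 of the 35 genes, in 37 windows. The strict element was found in 1 of the 37 windows, against 1.24% of the 32851 RefSeq promoters of the same length. CCAAT was found in 21 of the 37 windows (56.8%), against 37.4% of all promoters, and GGGCGG in 26 of the 37 (70.3%), against 35.7%. All 9 matched genes from squalene to cholesterol had both CCAAT and GGGCGG in at least 1 window. Of their 11 windows, 9 held CCAAT and 10 held GGGCGG. Of the 5 matched fatty acid genes, Acly and Fasn had CCAAT and Acly and Fads2 had GGGCGG. These matches describe letters and are not shown to be binding sites.

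Of the 8 fatty acid synthesis genes, 4 passed as higher in CVST+Ligation than in CVST, against 5.47% of all genes tested, and 5 as higher in 4-PBA than in CVST, against 8.07%. Of the 7 mevalonate genes and the 11 genes from squalene to cholesterol, 0 passed between CVST+Ligation and CVST. Between 4-PBA and CVST, 2 of these 18 passed as higher (Idi1 and Dhcr7), against 8.07%, and 1 as lower (Hsd17b7), against 7.33%. The plot of fitted changes of the 35 genes shows each of them, and no test compared the gene groups with each other. A gene is said to pass where its unadjusted p was below 0.05 in the quasi-likelihood test of edgeR, fitted to all 14746 genes. Between CVST+Ligation and CVST, 4 of the 35 passed as higher in CVST+Ligation (Elovl6, Scd2, Fads1 and Fads2), against 5.47% of all genes tested, and 0 passed as lower, against 4.18%. The groups did not overlap for 4 genes that were higher in CVST+Ligation (Elovl6, Fads1, Fads2 and Dhcr7), against 6.61% of all genes, and for 0 that were lower, against 7.21%. The median log2 fold change of the 35 was 0.03, with 19 above 0 and 16 below 0, and that of all genes was 0.0021. The count of 4 fell to 1, Elovl6, without CVST mouse 1, without CVST+Ligation mouse 1 and without CVST+Ligation mouse 2, which had the high cerebellar sum.

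Between 4-PBA and CVST+Ligation, Srebf1 was the 1 gene of the 35 that passed, as higher in 4-PBA, against 1.81% of all genes, and 0 passed as lower, against 1.42%. The groups did not overlap for 3 genes that were higher in 4-PBA (Pmvk, Idi1 and Srebf1), against 3.51% of all genes, and for 1 that was lower (Hsd17b7), against 4.22%. The median log2 fold change of the 35 was 0.12, with 29 above 0 and 6 below 0, against -0.017 for all genes.

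Between 4-PBA and CVST, 9 of the 35 passed as higher in 4-PBA (Idi1, Dhcr7, Srebf1, Elovl6, Scd1, Scd2, Fads1, Fads2 and Apoe), against 8.07% of all genes, and 1 passed as lower (Hsd17b7), against 7.33%. The groups did not overlap for 10 genes that were higher in 4-PBA, against 12.3% of all genes, and for 0 that were lower, against 11.5%. The 10 were the same 9 genes and Acaca. The median log2 fold change of the 35 was 0.12, with 25 above 0 and 10 below 0, against -0.0084 for all genes. The count of 9 fell to 5 without CVST mouse 1 and to 5 without 4-PBA mouse 2, and Srebf1, Elovl6, Scd2, Fads2 and Apoe passed in both of these fits.

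None of the 35 passed after Benjamini-Hochberg adjustment over all genes in edgeR's quasi-likelihood test in any comparison. After this adjustment 0.0203% of all genes passed between CVST+Ligation and CVST, 0% between 4-PBA and CVST+Ligation and 0.122% between 4-PBA and CVST. The smallest adjusted p of the 35 in edgeR's test was 0.321 (Elovl6), 0.9998 (all 35 genes) and 0.0845 (Elovl6) in these comparisons. With DESeq2 in place of edgeR, 0, 0 and 3 of the 35 passed, against 260, 22 and 834 of 17360 genes. The 3 were Elovl6, Fads2 and Apoe between 4-PBA and CVST. With limma on log2 FPKM, 0 of the 35 passed in each comparison. The smallest p that an exact permutation test of 3 mice against 3 allows is 0.1, and all p-values here therefore rest on the model, which shares the spread between mice across genes. The comparisons share mice, and on the log2 scale the difference between 4-PBA and CVST is close to the sum of the other two.

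**Figure D1:**
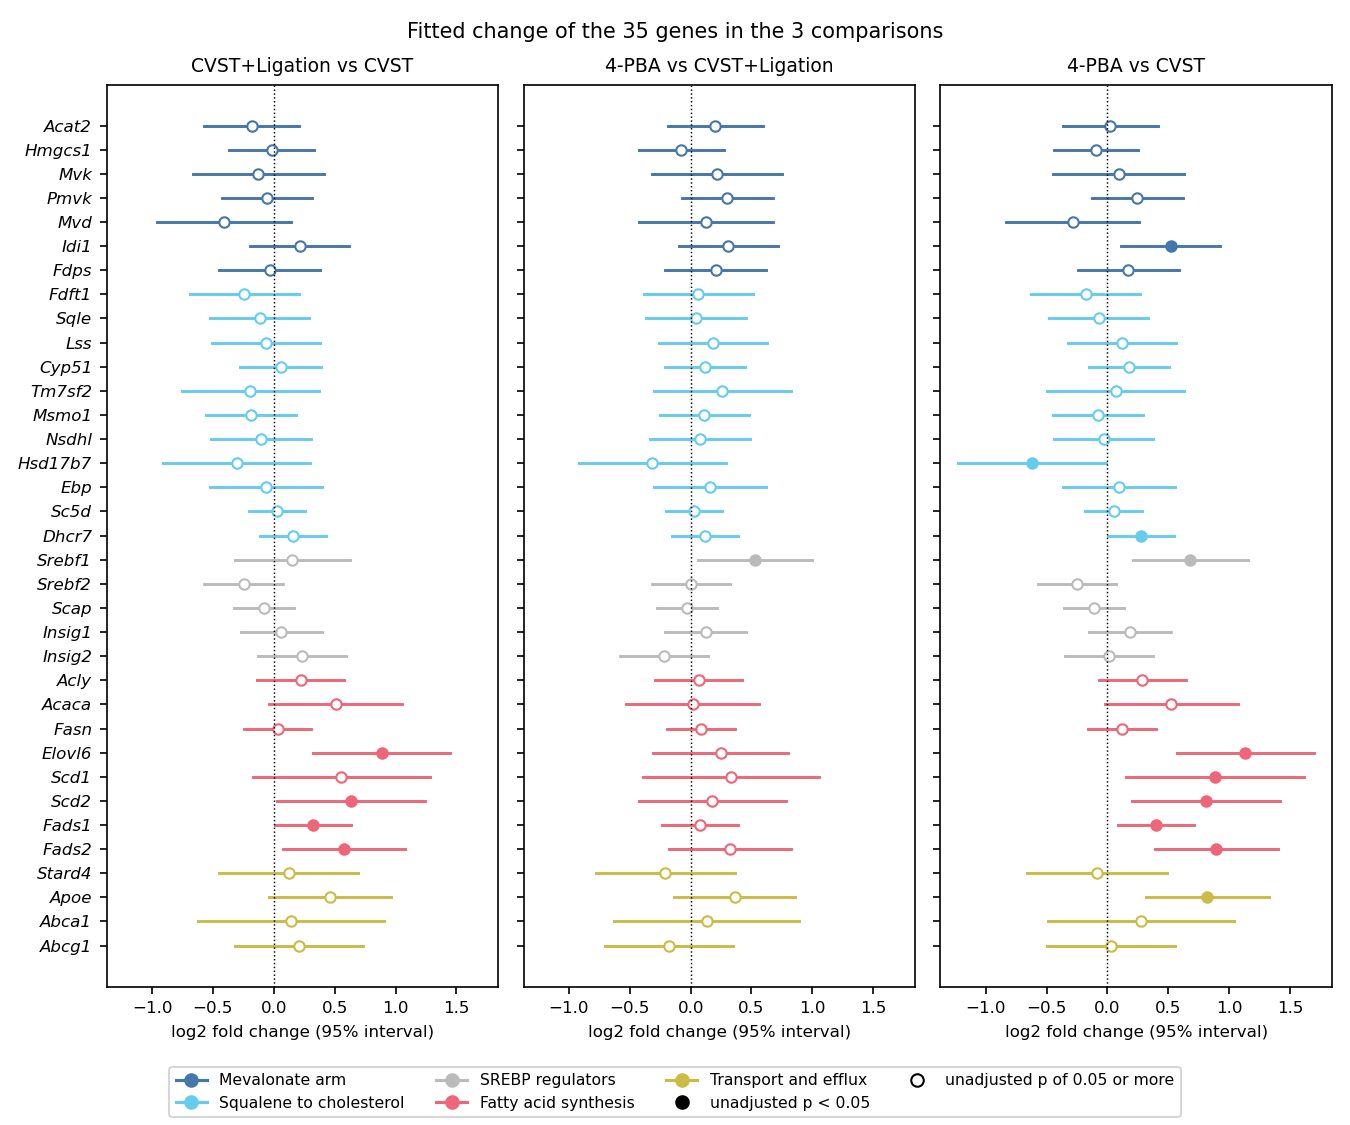
Fitted log2 fold changes (x axis) of the 35 genes (y axis, coloured by role) in the 3 comparisons, with 95% intervals from edgeR; filled points have an unadjusted p below 0.05. The fatty acid genes lie above 0 in every panel, up to 1.13 for Elovl6, and most sterol genes lie within 0.31 of 0.

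All 8 fatty acid synthesis genes had a log2 fold change above 0 in each of the 3 comparisons, with medians of 0.53 for CVST+Ligation against CVST, 0.13 for 4-PBA against CVST+Ligation and 0.67 for 4-PBA against CVST. Of the 8, the number that passed was 4, 0 and 5, each time as higher, beside the shares of all genes given above. Without 4-PBA mouse 1, only Elovl6 and Fads2 of the 8 passed between 4-PBA and CVST, where 1517 of 14958 genes passed. With 1 library left out, the fold change of Fasn turned below 0 in both comparisons with CVST, and those of Acly and Acaca between 4-PBA and CVST+Ligation. Elovl6 showed the widest separation. It stood at 5.18, 4.96 and 2.98 CPM in the CVST mice, 8.59, 7.52 and 8.22 CPM in the CVST+Ligation mice and 11.3, 9.17 and 8.42 CPM in the 4-PBA mice, from 55 to 221 reads per library. Every ligated mouse was above every CVST mouse, and the CVST+Ligation and 4-PBA mice overlapped. The log2 fold change of Elovl6 was 0.89 ± 0.25 (SE, edgeR adjusted p = 0.321) for CVST+Ligation against CVST, a 1.85-fold difference, and 1.13 ± 0.25 (SE, edgeR adjusted p = 0.0845) for 4-PBA against CVST, 2.19-fold. Both passed in all 6 fits that left out 1 mouse and under all 9 other settings. The DESeq2 adjusted p of the second was 0.00142, and over all alternatives the adjusted p ranged from 0.00142 to 0.262.

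Fads2 and Fads1 desaturate fatty acids on the way to the long polyunsaturated forms found in brain membranes, and they lie 81.1 kb apart on chromosome 19 (Fads2 at chr19:10062765-10101746 on the minus strand and Fads1 at chr19:10182888-10196877 on the plus strand, GENCODE M21 on GRCm38). Fads2 stood at 74.9, 112 and 133 CPM in the CVST mice, 170.1, 173 and 135 CPM in the CVST+Ligation mice and 233, 205 and 158 CPM in the 4-PBA mice. The lowest ligated mouse was just above the highest CVST mouse. Fads2 had a log2 fold change of 0.57 ± 0.22 (SE, edgeR adjusted p = 0.453) for CVST+Ligation against CVST and 0.89 ± 0.22 (SE, edgeR adjusted p = 0.114) for 4-PBA against CVST, 1.86-fold. The second passed in all 6 fits that left out 1 mouse, with a DESeq2 adjusted p of 0.00933 (range over the alternatives 0.00933 to 0.325), and the first was lost with the replicate block and when CVST mouse 1, CVST+Ligation mouse 1 or CVST+Ligation mouse 2 was left out. Fads1 stood at 94.6, 117 and 99.7 CPM in the CVST mice, 124, 146 and 120.0 CPM in the CVST+Ligation mice and 147, 143 and 121 CPM in the 4-PBA mice. It did not overlap between the CVST mice and either ligated group, with log2 fold changes of 0.32 ± 0.14 (SE, edgeR adjusted p = 0.502) and 0.40 ± 0.14 (SE, edgeR adjusted p = 0.215). These passed in 2 and in 3 of the 6 fits that left out 1 mouse.

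Scd2 and Scd1 encode stearoyl-CoA desaturases, of which Scd2 is the main brain form, and lie 87.6 kb apart on chromosome 19 (Scd2 at chr19:44293674-44306864 and Scd1 at chr19:44394455-44407879). As close relatives they may share reads, so how the reads divide between them is uncertain. Scd2 stood at 429.5, 481 and 281 CPM in the CVST mice, 553, 821 and 475 CPM in the CVST+Ligation mice and 865, 699.8 and 527 CPM in the 4-PBA mice. All 4-PBA mice were above all CVST mice, and 1 CVST+Ligation mouse was within the CVST range. The log2 fold change of Scd2 was 0.63 ± 0.27 (SE, edgeR adjusted p = 0.502) for CVST+Ligation against CVST, 0.18 ± 0.27 (SE, edgeR adjusted p = 0.9998) for 4-PBA against CVST+Ligation and 0.81 ± 0.27 (SE, edgeR adjusted p = 0.201) for 4-PBA against CVST, 1.76-fold. The first of these passed in 2 and the last in 4 of the 6 fits that left out 1 mouse. Scd1 stood at 52.3, 77.00 and 45.8 CPM in the CVST mice, 62.5, 130.4 and 64.4 CPM in the CVST+Ligation mice and 130.0, 116 and 78.01 CPM in the 4-PBA mice. CVST+Ligation mouse 2, the library with the high cerebellar sum, was far above the other mice of its group. The log2 fold change of Scd1 was 0.88 ± 0.33 (SE, edgeR adjusted p = 0.235) for 4-PBA against CVST, and the lowest 4-PBA mouse was barely above the highest CVST mouse. It passed in 2 of the 6 fits that left out 1 mouse.

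None of Acaca, Acly and Fasn, the genes that supply and build the saturated chain, passed in the test of edgeR. Acaca, the carboxylase that commits acetyl-CoA to fatty acids, stood at 93.2, 102 and 53.04 CPM in the CVST mice, 122, 139.5 and 90.7 CPM in the CVST+Ligation mice and 131, 117 and 108 CPM in the 4-PBA mice. All 4-PBA mice were above all CVST mice, and the CVST+Ligation mice overlapped with both. Acaca had a log2 fold change of 0.51 ± 0.24 (SE, edgeR adjusted p = 0.543) for CVST+Ligation against CVST and 0.52 ± 0.24 (SE, edgeR adjusted p = 0.344) for 4-PBA against CVST. The first passed in 2 of the 6 fits that left out 1 mouse and in 1 of the 9 other settings, and the second in 1 of the 6 and in 5 of the 9 (library totals alone, DESeq2, the replicate block and limma at either pseudocount). Acly ranged from 279 CPM in CVST mouse 3 to 439.6 CPM in 4-PBA mouse 2, and the groups overlapped in all comparisons. Fasn, the fatty acid synthase itself, stood at 371, 377 and 292 CPM in the CVST mice, 351, 367 and 345 CPM in the CVST+Ligation mice and 394, 373 and 361 CPM in the 4-PBA mice. For Fasn the log2 fold change was 0.03 ± 0.12 (SE, edgeR adjusted p = 0.948) for CVST+Ligation against CVST, 0.09 ± 0.12 (SE, edgeR adjusted p = 0.9998) for 4-PBA against CVST+Ligation and 0.12 ± 0.12 (SE, edgeR adjusted p = 0.708) for 4-PBA against CVST. The 95% interval of the last was -0.16 to 0.40, so that an increase of Fasn beyond 1.32-fold lay outside it.

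**Figure D2:**
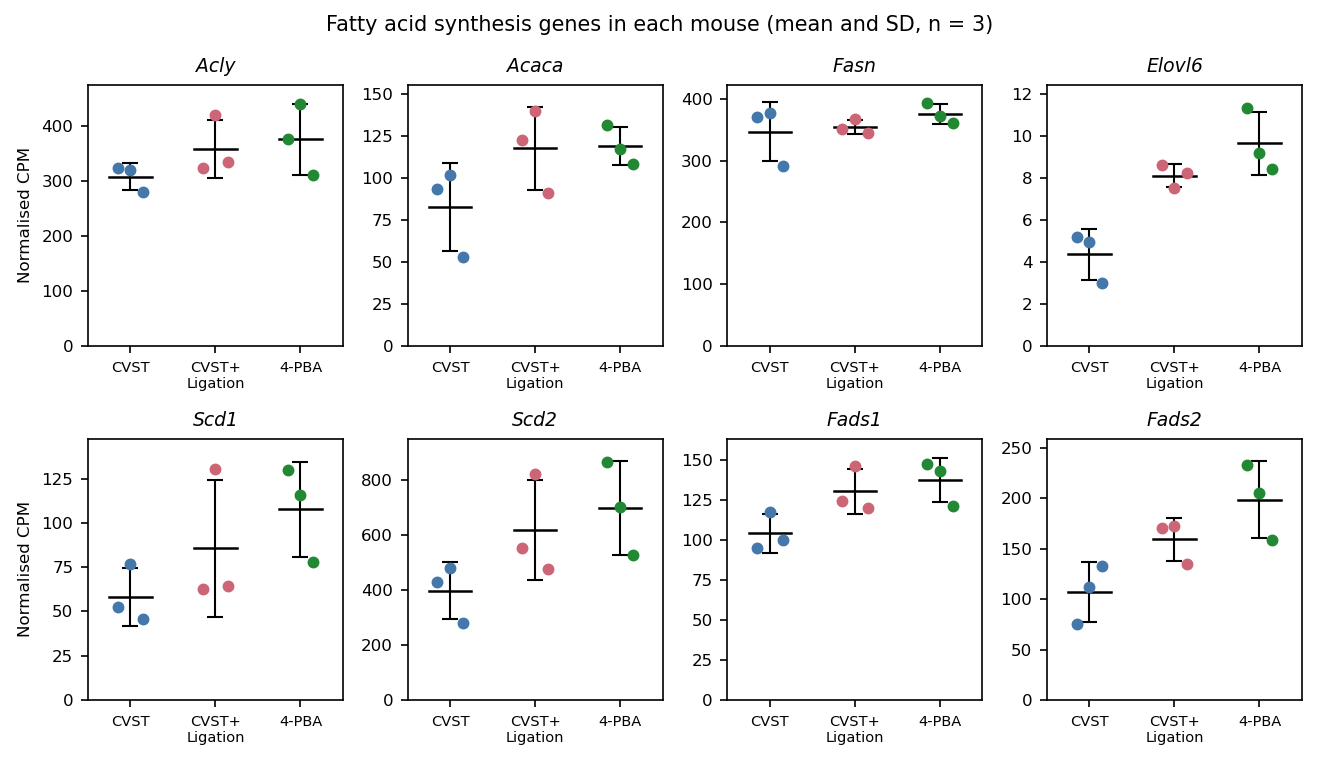
CPM (y axis, from 0) of the 8 fatty acid synthesis genes in each mouse of the 3 groups (x axis); points are mice, lines are the mean and bars the SD over 3 mice. Elovl6, Fads1 and Fads2 separate every ligated mouse from every CVST mouse, and Fasn does not separate the groups.

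Markers of the oligodendrocyte lineage also differed between groups. Of the 12 oligodendrocyte markers, 1 passed as higher in CVST+Ligation than in CVST, against 5.47% of all genes, 2 in 4-PBA than in CVST+Ligation, against 1.81%, and 8 in 4-PBA than in CVST, against 8.07%, and 0 passed as lower. The sum of 5 markers of oligodendrocyte precursors was 69.3 to 82.8 CPM in the CVST mice, 87.4 to 98.7 CPM in the CVST+Ligation mice and 91.0 to 127 CPM in the 4-PBA mice, so that every ligated mouse was above every CVST mouse, as for Elovl6, Fads1 and Fads2. Of these 5, 1, 0 and 4 passed as higher in the same order, 0 passed as lower, and none was at 0 in any library. The median deviation of the 8 fatty acid genes from their means over the 9 mice (log2) was highest in 4-PBA mouse 1 (0.50), which also had the highest oligodendrocyte sum (9449 CPM). It was lowest in CVST mouse 3 (-0.54), where the sum was 4964 CPM. CVST+Ligation mouse 1 had the lowest oligodendrocyte sum of all (3534 CPM). In that mouse Elovl6, Fads1 and Fads2 were above every CVST mouse, as was the precursor sum, and the median deviation was 0.03. The midbrain marker sum split the mice likewise, with 18.01 to 19.7 CPM in CVST and 172 to 232 CPM in the ligated mice. Ligation and region content thus changed together, and their parts in the comparisons with CVST cannot be told apart. The part of oligodendrocyte, precursor and region content in these differences was not tested.

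**Figure D3:**
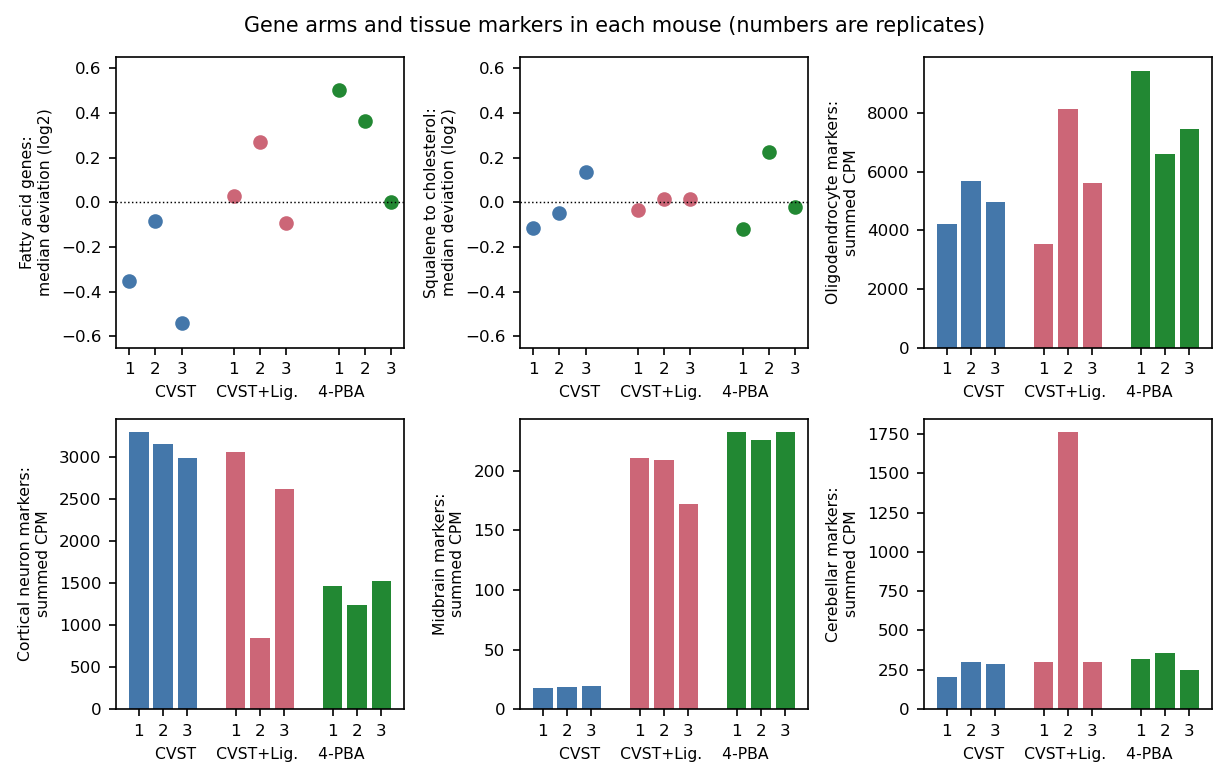
Median log2 deviation of the fatty acid genes and of the genes from squalene to cholesterol (upper left and middle panels) and summed CPM of oligodendrocyte, cortical neuron, midbrain and cerebellar markers (other panels, bars from 0) in each mouse (x axis, replicate number within group). The midbrain sum is 18.01 to 19.7 CPM in CVST and 172 to 232 CPM in the ligated mice, and the cerebellar sum reaches 1760.3 CPM in CVST+Ligation mouse 2.

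Of the regulators, Srebf1 passed as higher in 4-PBA than in CVST+Ligation and than in CVST, against 1.81% and 8.07% of all genes. The other 4 did not pass in any comparison. Srebf1 stood at 32.6, 52.8 and 46.6 CPM in the CVST mice, 41.1, 62.3 and 43.4 CPM in the CVST+Ligation mice and 74.3, 70.6 and 66.8 CPM in the 4-PBA mice. All 3 4-PBA mice were above the 6 other mice, and the CVST and CVST+Ligation mice overlapped. Srebf1 had a log2 fold change of 0.53 ± 0.21 (SE, edgeR adjusted p = 0.9998) for 4-PBA against CVST+Ligation, 1.44-fold, and 0.68 ± 0.21 (SE, edgeR adjusted p = 0.17) for 4-PBA against CVST, 1.60-fold. The second passed in all 6 fits that left out 1 mouse. The first was lost without CVST+Ligation mouse 1, CVST+Ligation mouse 3, 4-PBA mouse 1 or 4-PBA mouse 2, and passed under the 9 other settings.

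Srebf2, the sterol-directed counterpart, stood at 298, 273 and 246 CPM in the CVST mice, 248, 195 and 245 CPM in the CVST+Ligation mice and 228, 257 and 203 CPM in the 4-PBA mice. Its log2 fold change was -0.25 ± 0.14 (SE, edgeR adjusted p = 0.604) for CVST+Ligation against CVST, 0.00066 ± 0.14 (SE, edgeR adjusted p = 0.9998) for 4-PBA against CVST+Ligation and -0.25 ± 0.14 (SE, edgeR adjusted p = 0.447) for 4-PBA against CVST. Insig1, itself a target gene of SREBPs, stood at 29.99, 37.4 and 35.6 CPM in the CVST mice, 31.6, 40.2 and 35.7 CPM in the CVST+Ligation mice and 36.2, 41.1 and 39.7 CPM in the 4-PBA mice. Insig1 had log2 fold changes of 0.06 ± 0.15 (SE, edgeR adjusted p = 0.908), 0.12 ± 0.15 (SE, edgeR adjusted p = 0.9998) and 0.19 ± 0.15 (SE, edgeR adjusted p = 0.602) in the same order, and the groups overlapped throughout. Scap, which encodes the escort protein, kept within 114 to 135 CPM over the 9 mice, and Insig2 within 31.6 to 51.9 CPM.

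In the mevalonate pathway, Idi1 was the gene that passed. It stood at 21.9, 32.5 and 25.9 CPM in the CVST mice, 33.6, 29.9 and 29.4 CPM in the CVST+Ligation mice and 35.05, 45.1 and 34.9 CPM in the 4-PBA mice, and all 4-PBA mice were above all others. Its log2 fold change between 4-PBA and CVST was 0.52 ± 0.18 (SE, edgeR adjusted p = 0.218), 1.43-fold, and it passed in 4 of the 6 fits that left out 1 mouse. Hmgcs1, whose promoter holds the strict sterol element shown above, stood at 413, 352 and 435 CPM in the CVST mice, 386, 364 and 436 CPM in the CVST+Ligation mice and 336, 455 and 333 CPM in the 4-PBA mice. The highest and the lowest mouse were both in the 4-PBA group. The log2 fold change of Hmgcs1 was -0.02 ± 0.16 (SE, edgeR adjusted p = 0.98), -0.08 ± 0.16 (SE, edgeR adjusted p = 0.9998) and -0.09 ± 0.16 (SE, edgeR adjusted p = 0.823) in the 3 comparisons, with a 95% interval of -0.44 to 0.25 for the last. The other 5 genes of the pathway lay between -0.41 (Mvd, CVST+Ligation against CVST) and 0.30 (Pmvk, 4-PBA against CVST+Ligation), and none passed. The median of the 7 genes was -0.05, 0.21 and 0.09 in the 3 comparisons.

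From squalene to cholesterol, the 11 genes had median log2 fold changes of -0.11, 0.11 and 0.05, and 2 passed, both between 4-PBA and CVST, 1 as higher (against 8.07% of all genes) and 1 as lower (against 7.33%). Dhcr7, the last enzyme of one branch of the pathway, stood at 40.9, 40.96 and 38.6 CPM in the CVST mice, 44.8, 43.6 and 45.9 CPM in the CVST+Ligation mice and 44.3, 53.9 and 47.6 CPM in the 4-PBA mice. The CVST mice were below all ligated mice, and the log2 fold change between 4-PBA and CVST was 0.28 ± 0.12 (SE, edgeR adjusted p = 0.321), which passed in 1 of the 6 fits that left out 1 mouse and in 5 of the 9 other settings. Hsd17b7 stood at 22.2, 13.6 and 10.8 CPM in the CVST mice, 12.3, 13.3 and 12.1 CPM in the CVST+Ligation mice and 7.96, 11.3 and 11.01 CPM in the 4-PBA mice, so that 1 CVST mouse was far above the rest. Its log2 fold change between 4-PBA and CVST was -0.62 ± 0.27 (SE, edgeR adjusted p = 0.31), and it passed without CVST mouse 3 and was lost without any of the other 5 mice.

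Sqle, an enzyme whose activity limits the flow from squalene, stood at 154, 149 and 204 CPM in the CVST mice, 161, 130.4 and 177 CPM in the CVST+Ligation mice and 137, 192 and 154 CPM in the 4-PBA mice. Sqle had log2 fold changes of -0.12 ± 0.18 (SE, edgeR adjusted p = 0.854), 0.04 ± 0.18 (SE, edgeR adjusted p = 0.9998) and -0.07 ± 0.18 (SE, edgeR adjusted p = 0.893) in the 3 comparisons. Fdft1 reached its highest level in CVST mouse 3 (349 CPM) and its lowest in CVST+Ligation mouse 2 (202 CPM), and Sqle, Msmo1, Nsdhl, Acat2 and Mvd had the same highest and lowest mice. Sc5d varied least of the 35, from 65.4 to 73.1 CPM. The other genes of this branch, Lss, Cyp51, Tm7sf2, Msmo1, Nsdhl and Ebp among them, lay between -0.24 and 0.26 in every comparison, and none passed.

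**Figure D4:**
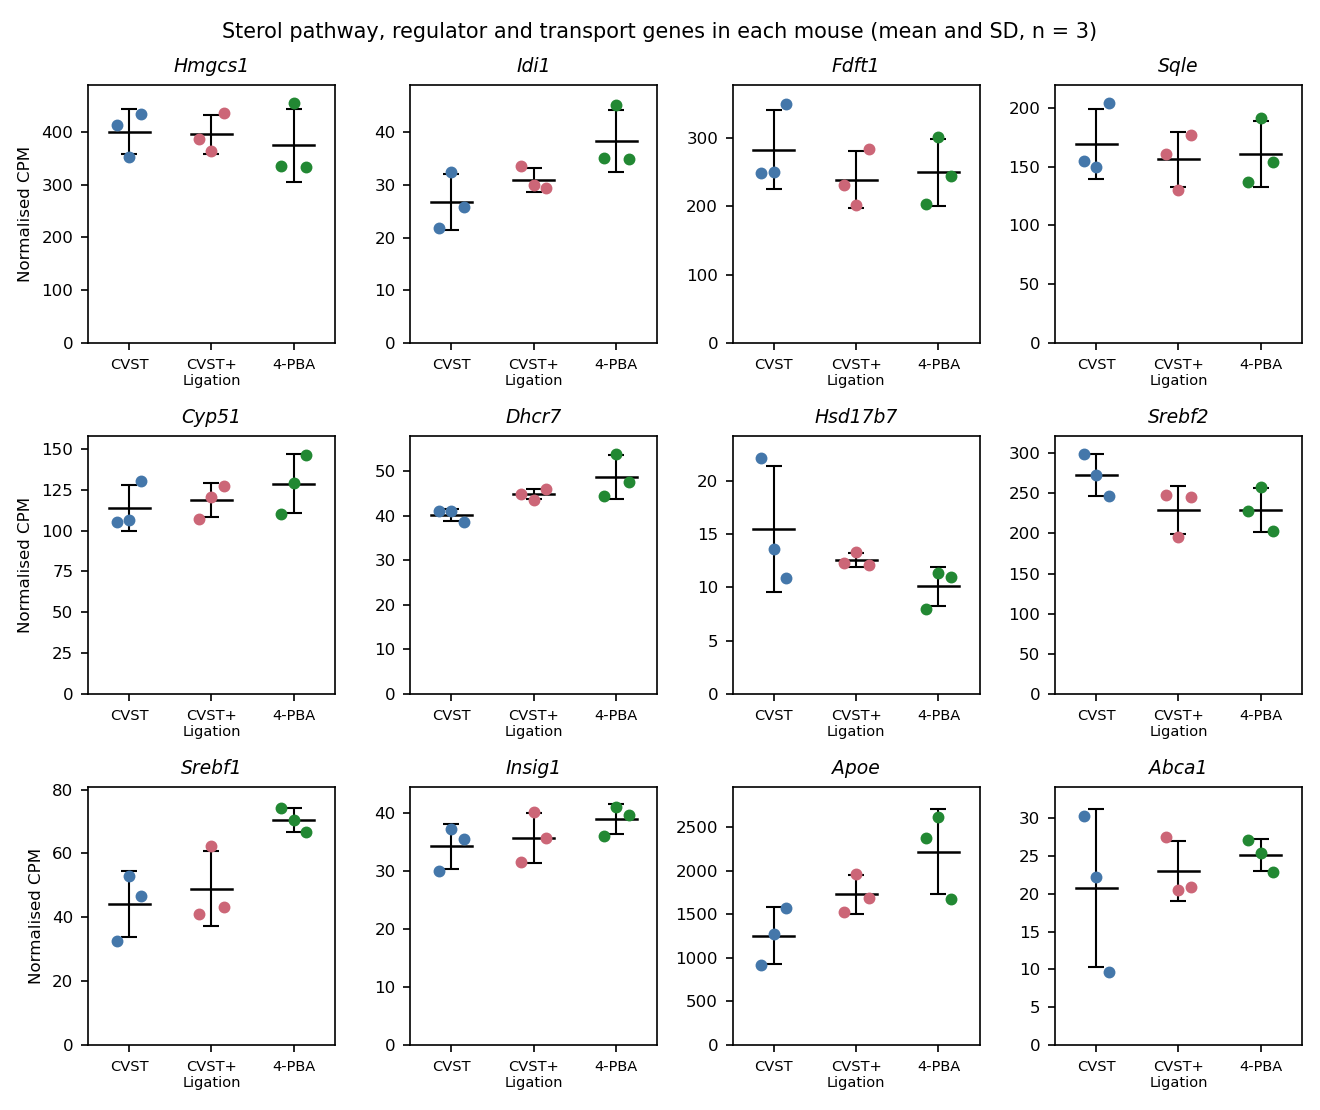
CPM (y axis, from 0) of 12 sterol pathway, regulator and transport genes in each mouse of the 3 groups (x axis); points are mice, lines are the mean and bars the SD over 3 mice. Srebf1 and Idi1 are highest in the 3 4-PBA mice, while Hmgcs1, Fdft1 and Sqle overlap between groups.

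Of the transport and efflux genes, Apoe passed between 4-PBA and CVST. It stood at 922, 1277 and 1565 CPM in the CVST mice, 1529, 1965 and 1683 CPM in the CVST+Ligation mice and 2372, 2609 and 1669.7 CPM in the 4-PBA mice, on 21708 to 62034 reads per library. All 4-PBA mice were above all CVST mice, and the CVST+Ligation mice overlapped with both. The log2 fold change of Apoe was 0.46 ± 0.22 (SE, edgeR adjusted p = 0.548) for CVST+Ligation against CVST, 0.36 ± 0.22 (SE, edgeR adjusted p = 0.9998) for 4-PBA against CVST+Ligation and 0.82 ± 0.22 (SE, edgeR adjusted p = 0.133) for 4-PBA against CVST, 1.77-fold. The last passed in all 6 fits that left out 1 mouse, with a DESeq2 adjusted p of 0.0182 (range over the alternatives 0.0182 to 0.368). Astrocytes are the main source of Apoe in the brain. Of 10 astrocyte markers, 3 passed as higher in CVST+Ligation than in CVST, against 5.47% of all genes, 0 in 4-PBA than in CVST+Ligation, against 1.81%, and 1 in 4-PBA than in CVST, against 8.07%, with 0 lower. Their summed level was 2036 to 3177 CPM, 2410 to 3803 CPM and 2421 to 3696 CPM in the 3 groups, none was at 0 in any library, and their part in the result was not tested.

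Abca1, a target gene of the sterol-sensing liver X receptors, stood at 30.3, 22.3 and 9.65 CPM in the CVST mice, 27.5, 20.5 and 20.9 CPM in the CVST+Ligation mice and 27.1, 25.4 and 22.9 CPM in the 4-PBA mice. The CVST mice spanned the whole range of the other 6, with both the highest and the lowest level. The log2 fold change of Abca1 was 0.14 ± 0.34 (SE, edgeR adjusted p = 0.907), 0.13 ± 0.34 (SE, edgeR adjusted p = 0.9998) and 0.27 ± 0.34 (SE, edgeR adjusted p = 0.756) in the 3 comparisons, with a 95% interval of -0.49 to 1.04 for the last, the widest of the 35. Abcg1 ranged from 36.8 to 69.03 CPM and Stard4 from 7.27 to 12.96 CPM, and neither passed.

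Within groups, the mice differed from each other by pathway. In CVST mouse 3, 8 of the 11 genes from squalene to cholesterol and 6 of the 7 mevalonate genes were above their means over the 9 mice, while 0 of the 8 fatty acid genes were. In CVST mouse 1 the counts were 2 of 11, 2 of 7 and 1 of 8. In 4-PBA mouse 1 all 8 fatty acid genes and 2 of the 11 squalene to cholesterol genes were above their means. 4-PBA mouse 2 was high in both, with 30 of the 35 genes above their means and 10 at their highest.

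**Figure D5:**
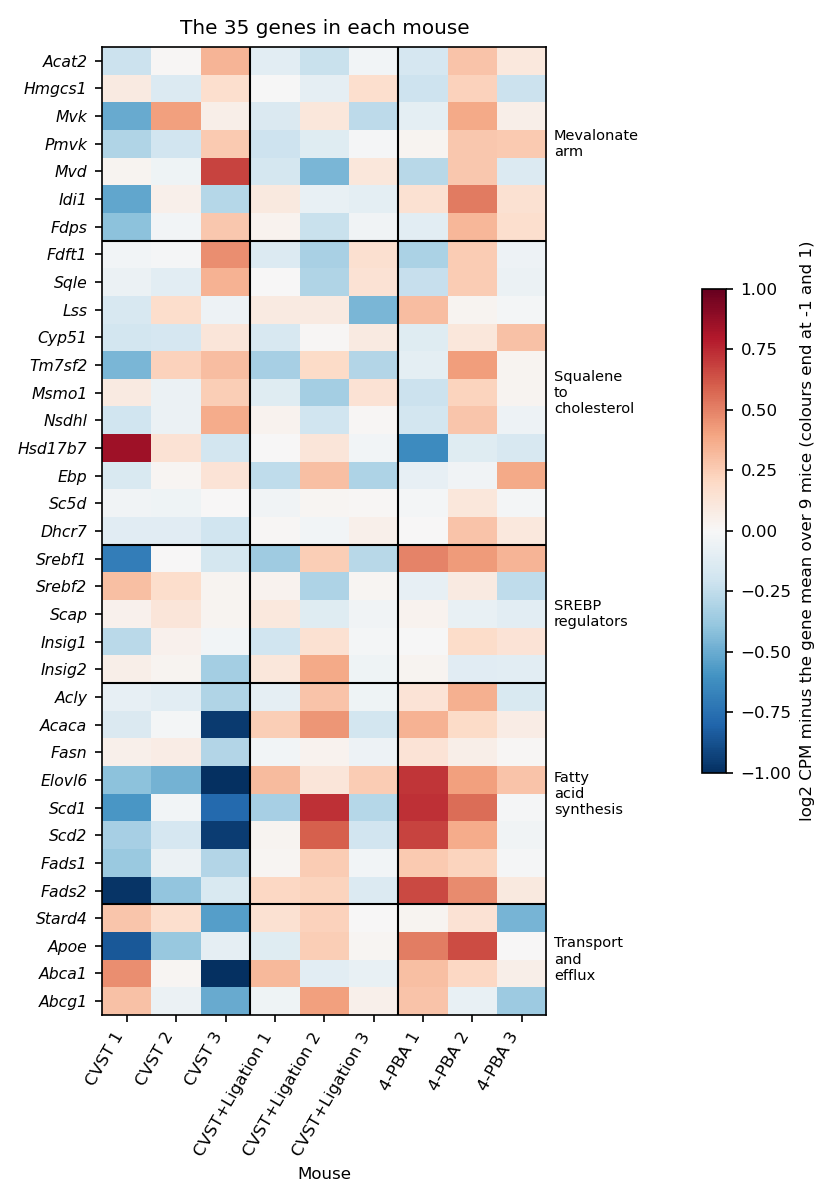
Log2 CPM of each of the 35 genes (y axis, grouped by role) in each mouse (x axis) minus the mean of the gene over the 9 mice, with colours ending at -1 and 1. CVST mouse 3 is below the mean for all 8 fatty acid genes and above it for 8 of the 11 genes from squalene to cholesterol.

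A list of 36 other genes of lipid synthesis, sterol sensing, uptake, esterification and breakdown was examined in the same fit, and all 36 were tested. Between CVST+Ligation and CVST, 3 of the 36 passed as higher (Lpin1, Cyp27a1 and Elovl5), against 5.47% of all genes, and 1 as lower (Cyp46a1), against 4.18%, with a median log2 fold change of 0.12. In 4-PBA against CVST+Ligation, 0 passed in edgeR's test (0 with DESeq2 and 1 with limma), with a median of 0.02. Without CVST+Ligation mouse 2 the count was 9, and that of all genes rose from 476 of 14746 to 1497 of 14950. In 4-PBA against CVST, 6 passed as higher (Npc2, Lipa, Cyp27a1, Acacb, Elovl5 and Elovl1), against 8.07%, and 1 as lower (Cyp46a1), against 7.33%, with a median of 0.16. Without CVST mouse 3 the counts against CVST fell from 4 to 0 for CVST+Ligation and from 7 to 4 for 4-PBA. Over all genes, 1535 and 2446 of 14991 passed in these 2 fits, against 1422 and 2271 of 14746 with all mice.

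Elovl5, which elongates polyunsaturated fatty acids in the same route as Fads1 and Fads2, stood at 38.8, 47.9 and 40.7 CPM in the CVST mice, 48.5, 89.4 and 49.2 CPM in the CVST+Ligation mice and 79.1, 79.5 and 59.3 CPM in the 4-PBA mice. Elovl5 had a log2 fold change of 0.55 ± 0.24 (SE, edgeR adjusted p = 0.515) for CVST+Ligation against CVST and 0.77 ± 0.24 (SE, edgeR adjusted p = 0.181) for 4-PBA against CVST, and the groups did not overlap in either. Elovl1, an elongase of very long saturated chains, had a log2 fold change of 0.63 ± 0.23 (SE, edgeR adjusted p = 0.224) between 4-PBA and CVST. Acacb, the mitochondrial relative of Acaca, had 1.15 ± 0.38 (SE, edgeR adjusted p = 0.196). Lpin1, a phosphatidate phosphatase of lipid synthesis, had 0.64 ± 0.28 (SE, edgeR adjusted p = 0.516) between CVST+Ligation and CVST.

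Cyp46a1, the neuronal hydroxylase through which cholesterol leaves the brain, was the gene that passed as lower. It stood at 214, 206 and 242 CPM in the CVST mice, 159.8, 87.01 and 175 CPM in the CVST+Ligation mice and 144, 142 and 103 CPM in the 4-PBA mice, and all ligated mice were below all CVST mice. Its log2 fold change was -0.65 ± 0.25 (SE, edgeR adjusted p = 0.436) for CVST+Ligation against CVST and -0.77 ± 0.25 (SE, edgeR adjusted p = 0.185) for 4-PBA against CVST. The sum of cortical neuron markers was also below every CVST mouse in the 3 4-PBA mice and in 2 of the 3 CVST+Ligation mice, and was lowest in CVST+Ligation mouse 2, where Cyp46a1 was lowest as well. The part of neuron content was not tested. Cyp27a1, another sterol hydroxylase, had log2 fold changes of 1.31 ± 0.58 (SE, edgeR adjusted p = 0.516) and 1.43 ± 0.58 (SE, edgeR adjusted p = 0.276) for CVST+Ligation and 4-PBA against CVST, at a low level. It stood at 2.08, 5.36 and 4.34 CPM in the CVST mice, 4.54, 19.4 and 5.23 CPM in the CVST+Ligation mice and 14.2, 9.17 and 8.34 CPM in the 4-PBA mice. Of the CVST+Ligation mice 2 were within the CVST range, and the third, mouse 2 with the high cerebellar sum, was far above it, whereas all 4-PBA mice were above all CVST mice. Npc2 and Lipa, which release cholesterol in lysosomes, had 0.42 ± 0.16 (SE, edgeR adjusted p = 0.264) and 0.45 ± 0.19 (SE, edgeR adjusted p = 0.306) between 4-PBA and CVST.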

How the data were processed

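RNA of 9 mouse brain samples, 3 per group, was sequenced, and samples were grouped by their titles. The submitters' processing notes name fastp, HISAT2, StringTie and RSEM and the builds mm10 and GRCm38, without versions. Raw read counts per gene symbol and library were deposited by the authors, beside a table which the methods call TPM. The deposited values in it are FPKM: each equals the count divided by the library total and by 1 length per gene, and the columns sum to 780195 to 879696. The methods name RSEM for quantification. The deposited counts are whole numbers, and whether they are rounded RSEM estimates, which would divide shared reads among related genes, is not given in the sources used here.

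Counts were fitted in R 4.3.3 with edgeR 4.0.16 (TMM scaling, filterByExpr with the groups, quasi-likelihood test). A model of 3 groups without covariates covered all 9 libraries, so that the spread of each gene was estimated over the 3 groups together. The common biological coefficient of variation over all genes was 0.287. P-values were adjusted by Benjamini-Hochberg over the 14746 genes tested. They set the difference between groups against the modelled spread between these mice. CPM values are on the TMM scale. DESeq2 1.42.0 and limma 3.58.1 on log2(FPKM + 1) and log2(FPKM + 0.1) were alternatives, as were other scalings, filters, a replicate block, a fit of only the groups compared and fits that left out 1 library at a time. The fitting procedure was tested on simulated data. Libraries of a group correlated across genes with r of 0.946 to 0.982, and none repeated another. Plots were made with matplotlib 3.10.9.

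The 35 genes, the lists of other pathway genes and of cell type and region markers, and the rule for named genes were chosen with earlier results of these data known. By that rule every one of the 35 is named with its level. Fold changes are given for genes with an unadjusted p below 0.05 in a comparison, and in all comparisons for Hmgcs1, Sqle, Insig1, Srebf2, Fasn, Scd2, Apoe and Abca1. Outside that rule, those of Acaca against CVST were added after its values were seen, since it passed in some alternatives. Of the 36 other genes, those with an unadjusted p below 0.05 are named. Some single genes of these lists are not reported here. Markers of other lists (oligodendrocyte precursors, microglia, leukocytes, endothelium, choroid plexus, striatum and erythrocytes) were summed in the same way.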

Additional observations from a re-analysis of the deposited data

How the results depend on the processing

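The log2 fold changes of the 35 genes that passed kept their direction under every alternative. Of the 105 log2 fold changes of the 35 genes in the 3 comparisons, 37 changed sign in at least 1 alternative, and none of the 37 passed in the fit reported above or in an alternative where the sign had changed. For the 38 fold changes given with an error in the text for the 35 genes, 485 values under the alternatives kept their direction and their side of the threshold, 47 kept their direction and no longer passed, 14 passed where they had not, and 24 turned. Hmgcs1 between CVST+Ligation and CVST was 0.023 with library totals alone and 0.025 with limma at either pseudocount. Srebf2 between 4-PBA and CVST+Ligation was -0.0014 without the filter on low counts and -0.00045 with the replicate block. Sqle between 4-PBA and CVST was 0.0019 with library totals alone. With 1 library left out, log2 fold changes between CVST+Ligation and CVST ranged from -0.10 to 0.038 for Hmgcs1, -0.22 to 0.018 for Sqle, -0.031 to 0.14 for Insig1, -0.10 to 0.10 for Fasn and -0.22 to 0.52 for Abca1. Between 4-PBA and CVST+Ligation they ranged from -0.24 to 0.011 for Hmgcs1, -0.10 to 0.16 for Sqle and -0.090 to 0.081 for Srebf2. Between 4-PBA and CVST they ranged from -0.22 to 0.066 for Sqle, -0.011 to 0.20 for Fasn and -0.084 to 0.66 for Abca1. The cause was not tested. The number of the 35 genes that passed as higher ranged, with 1 library left out, from 1 to 6 for CVST+Ligation against CVST, 0 to 2 for 4-PBA against CVST+Ligation and 5 to 9 for 4-PBA against CVST. In a fit of only the 2 groups compared, 2 were higher in 4-PBA than in CVST+Ligation (Pmvk and Srebf1). The 1 gene lower in 4-PBA than in CVST, Hsd17b7, became 0 with library totals alone, with the replicate block, in a fit of only the 2 groups, and with limma at either pseudocount, and ranged from 0 to 1 with 1 library left out. After adjustment, 3 of the 35 genes passed with DESeq2 between 4-PBA and CVST, against 834 of 17360 genes. Of the 36 other genes, the number that passed between CVST+Ligation and CVST was 2 with at least 10 counts in every library, 1 with only the 2 groups, and 0 to 5 with 1 library left out. For 4-PBA against CVST+Ligation it was 2 with the replicate block, 1 with limma at either pseudocount and 0 to 9 with 1 library left out. The 9 came without CVST+Ligation mouse 2, where 1497 of 14950 genes passed, against 476 of 14746 in the fit reported above. In the comparison of 4-PBA with CVST the number of the 36 that passed ranged from 4 to 7 with 1 library left out.

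The replicate numbers were tried as a replicate block. Deviations of same-numbered libraries correlated with r of -0.0516 to 0.324, above 0.1 in 4 of 9 pairs. Of the 9 libraries, 3 correlated best with their own number. Whether same-numbered mice share anything beyond the number was not tested. Over all 14746 genes, 1765, 521 and 2644 passed with the block in the 3 comparisons, against 1422, 476 and 2271 without it. With the replicate block 5, 1 and 9 of the 35 genes passed as higher in the 3 comparisons. Fads2 was lost, and Acaca and Scd1 gained, between CVST+Ligation and CVST, and Dhcr7 was lost and Acaca gained between 4-PBA and CVST. Scaling by library totals or limma moved the share of higher genes among all genes that passed by over 10 percentage points in at least 1 comparison: from 56.7%, 56.1% and 52.4% to 65.4%, 66.1% and 65.1% with library totals, and to 59.9%, 72.4% and 64.97% with limma on log2(FPKM + 1). No alternative moved the median of all genes by over 0.1 (log2). Of the 35 genes, those with the fewest reads, Elovl6 with 55 and Stard4 with 134 in the lowest library, carry the largest counting error.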

Other observations

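Markers of other cell types and regions also differed between the groups. The sum of 8 microglia markers was 749 to 843 CPM, 587 to 660.0 CPM and 604 to 719.7 CPM in the CVST, CVST+Ligation and 4-PBA mice in this order, and 3 of the 8 passed as lower in CVST+Ligation than in CVST, against 4.18% of all genes, and 2 as lower in 4-PBA than in CVST, against 7.33%. The sum of 8 striatal markers was 1053 to 1771 CPM, 195 to 515 CPM and 254 to 1281 CPM, and all 8 passed as lower in CVST+Ligation than in CVST (4.18% of all genes), 2 as lower in 4-PBA than in CVST (7.33%) and 1 as higher in 4-PBA than in CVST+Ligation (1.81%). The sum of 7 choroid plexus markers, Ttr among them, was 793 to 987 CPM, 21.8 to 865 CPM and 449 to 3149 CPM, with the highest value in 4-PBA mouse 1, and of the 7, 1 passed as higher in CVST+Ligation than in CVST (5.47% of all genes), 2 in 4-PBA than in CVST+Ligation (1.81%) and 3 in 4-PBA than in CVST (8.07%). The 5 erythrocyte markers summed to 154 to 186 CPM, 151 to 329 CPM and 167 to 211 CPM, and 2 passed as higher in CVST+Ligation than in CVST (5.47% of all genes). The 8 endothelial markers (253 to 426 CPM over all mice) and the 8 leukocyte markers (1.53 to 11.96 CPM, 4 of them tested) did not pass in any comparison.

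The ratio of Srebf1 to Srebf2, each per length in FPKM, was chosen after the values of both genes were seen and was not tested. It was 0.111, 0.197 and 0.193 in the CVST mice, 0.169, 0.325 and 0.180 in the CVST+Ligation mice and 0.332, 0.280 and 0.335 in the 4-PBA mice. CVST+Ligation mouse 2, which had the low cortical neuron sum, was within the range of the 4-PBA mice.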
